A study of Homo sapiens with 8 samples.

Results

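The cytosolic ribosomal protein genes encode the proteins of the ribosome that translates messenger RNA in the cytosol. They were taken here as the protein-coding genes with a symbol of RPL or RPS and digits, together with RPLP0, RPLP1, RPLP2 and RPSA, which gave 82 genes of the 19821 coding genes of the annotation. Of the 82, 50 encode proteins of the large subunit and 32 proteins of the small subunit. HIF-1β, the partner that HIF-α subunits need in order to bind DNA, was immunoprecipitated with its DNA (ChIP-seq) from PC-3 (prostate cancer), T47D (breast cancer), A549 (lung cancer) and HCT-116 (colorectal cancer) cells. All 8 libraries came from cells held at 0.5% oxygen for 16 h, with replicates 1 and 2 of PC-3 and T47D cells and replicates 2 and 3 of A549 and HCT-116 cells. Neither normoxic cells nor an input library was analysed here, so the values are binding in hypoxia and not a change with oxygen. The labels name the replicates without saying whether they were separate cultures.

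Ribosomal proteins surround the ribosomal RNA of both subunits and are needed in nearly equal amounts, and their genes are among the most highly transcribed in dividing cells. Their promoters are mostly rich in CpG, and their messengers start with a run of pyrimidines through which mTOR, a kinase that senses growth conditions, sets their translation. Hypoxia is known to restrain protein synthesis, largely through mTOR and through phosphorylation of the initiation factor eIF2α, while HIF is best known as an activator of glycolytic and angiogenic genes. Whether HIF-1β is found at the ribosomal protein genes themselves is the question that the peak lists can address.

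The DNA under the sites of 5 of these genes is shown with the letters that the HIF dimer reads. The letters do not single these sites out, as 98.8 to 99.7% of all sites near a coding start held them, by line. A site was a region in which peaks of both replicates of a line overlapped by at least 1 bp, and a gene had a site or a peak if it lay within 2 kb of the start of any coding transcript. HIF binds around RCGTG, which is ACGTG or GCGTG, and capitals mark each copy on either strand, so that CACGT and CACGC are the same letters on the other strand. Each run is GRCh37 (hg19) reference sequence, 5′ to 3′ on the strand of the gene, around the copy nearest to the centre of the site among those outside annotated exons. For RPL18 every copy lay in an exon of a coding transcript, and only 29 bases are shown. The runs are chr22:39715679-39715823 (minus strand) for RPL3, chr1:93297809-93297895 (plus) for RPL5, chr9:127623835-127623966 (minus) for RPL35, chr12:56511879-56512023 (plus) for RPL41 and chr19:49122613-49122641 (minus) for RPL18. The site is that of T47D cells, except for RPL41, for which it is that of HCT-116 cells.
RPL3: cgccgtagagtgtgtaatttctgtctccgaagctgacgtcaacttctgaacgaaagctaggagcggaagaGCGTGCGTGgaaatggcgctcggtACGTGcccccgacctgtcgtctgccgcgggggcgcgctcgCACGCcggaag
RPL5: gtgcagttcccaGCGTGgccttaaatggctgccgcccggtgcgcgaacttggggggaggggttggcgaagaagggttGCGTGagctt
RPL35: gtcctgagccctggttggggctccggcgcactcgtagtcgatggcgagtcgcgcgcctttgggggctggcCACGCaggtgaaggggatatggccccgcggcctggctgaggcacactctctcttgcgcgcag
RPL41: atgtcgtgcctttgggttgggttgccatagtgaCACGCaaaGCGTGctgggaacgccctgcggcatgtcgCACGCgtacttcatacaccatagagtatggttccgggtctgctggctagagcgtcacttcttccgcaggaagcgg
RPL18: gagaggcccccgACGTGctggcccttccc

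The copies nearest to the centre lay 123 and 192 bp upstream of the canonical start in RPL3 and RPL18. In RPL5 and RPL35 they lay 226 and 342 bp downstream of it, in an intron. In RPL41 the copy lay 1534 bp downstream, beyond the end of the gene at 56511751 on chromosome 12. From the centre of the site the copies lay 13 bp in RPL18, 42 in RPL3, 82 in RPL41, 96 in RPL5 and 280 in RPL35. All 18 pieces of 28 bases into which the 5 runs were divided matched GRCh37 exactly at 1 place each.

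HIF-1β was found at few ribosomal protein genes. In T47D cells 7 of 82 had a site, which is 8.54% (95% exact binomial interval 3.5 to 16.8%), beside 7.41% of all coding genes. In HCT-116 cells 3 of 82 had one, 3.66% (interval 0.761 to 10.3%) beside 6.48%. In PC-3 cells it was 1 of 82, 1.22% (interval 0.0309 to 6.61%) beside 2.36%, and in A549 cells likewise 1 of 82 beside 1.87%. Each of these shares lay near that of all coding genes, and every interval contained it. The intervals cover counting error only.

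Over the 4 lines the share of ribosomal protein genes differed from that of coding genes by a mean of -0.871 percentage points (SD 1.62, n = 4 lines). The difference was -1.14 in PC-3, 1.13 in T47D, -0.652 in A549 and -2.82 in HCT-116 cells. The exact sign-flip permutation test over lines, two-sided, gave p = 0.375, and the smallest p that 4 lines allow, 1 in 8, is itself above 0.05. The ribosomal protein genes were below the background in 3 lines and above it in T47D cells. A difference was therefore not detectable at this number of lines, and this does not show that the shares were equal. The mean turned to 2.38 points when a peak of either replicate was enough, and to 3.01 points with the lower-numbered replicate of each line alone.

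**Figure D1:**
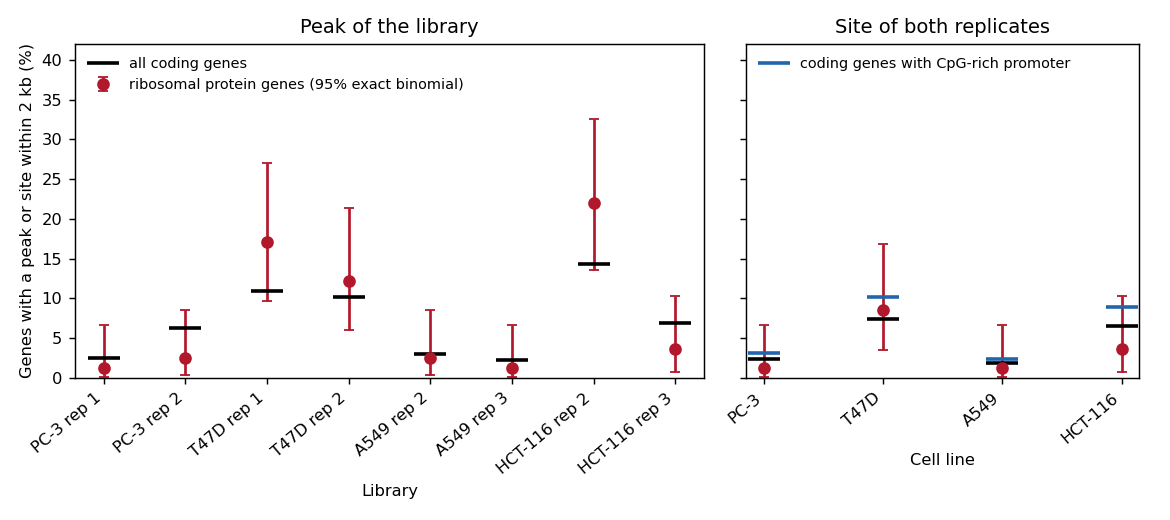
Share of ribosomal protein genes (red points, with 95% exact binomial intervals) and of all coding genes (black bars) with a peak within 2 kb of a coding start in each library (left) or with a site of both replicates in each line (right, where blue bars are coding genes with a CpG-rich promoter), in percent on the vertical axis. The red points run from 1.22% to 22.0% over libraries and from 1.22% to 8.54% over lines, and the background lies inside every interval.

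A narrower window of 500 bp left 6 genes in T47D and 2 in HCT-116 cells and none in PC-3 and A549 cells. The shares of all coding genes in that window were 6.98% in T47D, 6.03% in HCT-116, 2.05% in PC-3 and 1.6% in A549 cells. What was lost in each line was RPL41. The sites counted in PC-3 and A549 cells were thus at a gene whose start they did not reach.

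Known HIF targets were set beside these shares, from a list chosen with earlier results of these data known. Of 22 such genes, 18 had a site in all 4 lines, beside 0.954% of coding genes, and between 19 and 21 had one in each line. GPI and ENO1, which encode glycolytic enzymes, had a peak in all 8 libraries, with scores above 99.8% and 99.7% of the peaks of the library on average. RPL41 was the only ribosomal protein gene with a peak in all 8 libraries, and its scores were above 41.1% of the peaks on average. A peak in all 8 was present at 0.959% of coding genes.

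Among individual libraries the counts were uneven. In HCT-116 cells 18 of 82 ribosomal protein genes had a peak in replicate 2, 22.0% (interval 13.6 to 32.5%) beside 14.3% of coding genes, but 3 in replicate 3, 3.66% beside 6.94%. In T47D cells 14 genes had one in replicate 1, 17.1% (interval 9.66 to 27.0%) beside 10.9%, and 10 in replicate 2, 12.2% beside 10.1%. The 3 libraries with the most ribosomal protein genes were thus also the 3 with the most coding genes.

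PC-3 cells had 1 gene in replicate 1, 1.22% beside 2.49%, and 2 genes in replicate 2, 2.44% beside 6.2%. A549 cells had 2 genes in replicate 2, 2.44% beside 3.02%, and 1 gene in replicate 3, 1.22% beside 2.25%. The share in a library was above that of coding genes in both T47D libraries and in HCT-116 replicate 2 and below it in the other 5. The lists held 3790 and 1913 peaks in replicates 2 and 3 of HCT-116 cells and between 1042 and 3061 in the others, and they contain no reads, so that depth could not be set beside these counts.

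A difference between lines in the share of ribosomal protein genes beyond that between replicates was not detected. Replicates of a line differed by 6.4 percentage points on average, against 9.1 over every possible pairing of the libraries (p = 0.24 in a one-sided exact permutation test, adjusted p = 0.31 over 3 measures). For the share of all coding genes the values were 3.15 and 5.28 points (exact permutation test, p = 0.14, adjusted p = 0.31). For the difference between the shares they were 4.5 and 4.94 points (exact permutation test, p = 0.31, adjusted p = 0.31). With the higher-scoring 50% of each list alone, replicates of a line differed by 1.22 points, and the test passed 0.05 (exact permutation test, unadjusted p = 0.029). This rests on few peaks, since those above the library median numbered 6 and 6 in T47D, 5 and 1 in HCT-116 and 0 in each PC-3 and A549 library. For the share of all coding genes the same 50% gave p = 0.18 (exact permutation test, unadjusted).

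Over the 8 libraries, 25 of 82 genes (30.5%) had a peak in at least 1, beside 21.5% of coding genes, and 57 had none. Against coding genes with a CpG-rich promoter (defined below) the gap was smaller, since 28.9% of those had a peak. Of the 72 ribosomal protein genes with such a promoter, 34.7% had one. Among genes seen once the share stood above that of all coding genes, which was not tested. In exactly 1 library a peak was present at 14 genes, 17.1% of the 82 beside 8.74% of coding genes, whereas 8 genes (9.76%) had a site in any line beside 10.7% of coding genes. Of these 14 genes, 7 had their peak in T47D and 7 in HCT-116 cells. Another 4 genes (4.88%) had peaks in 2 libraries and 4 (4.88%) in 3, beside 4.8% and 2.61% of coding genes. RPL18, RPS29 and RPL41 had peaks in 4, 5 and 8 libraries, 1.22% of the 82 each, beside 1.84%, 1.24% and 0.959% of coding genes.

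**Figure D2:**
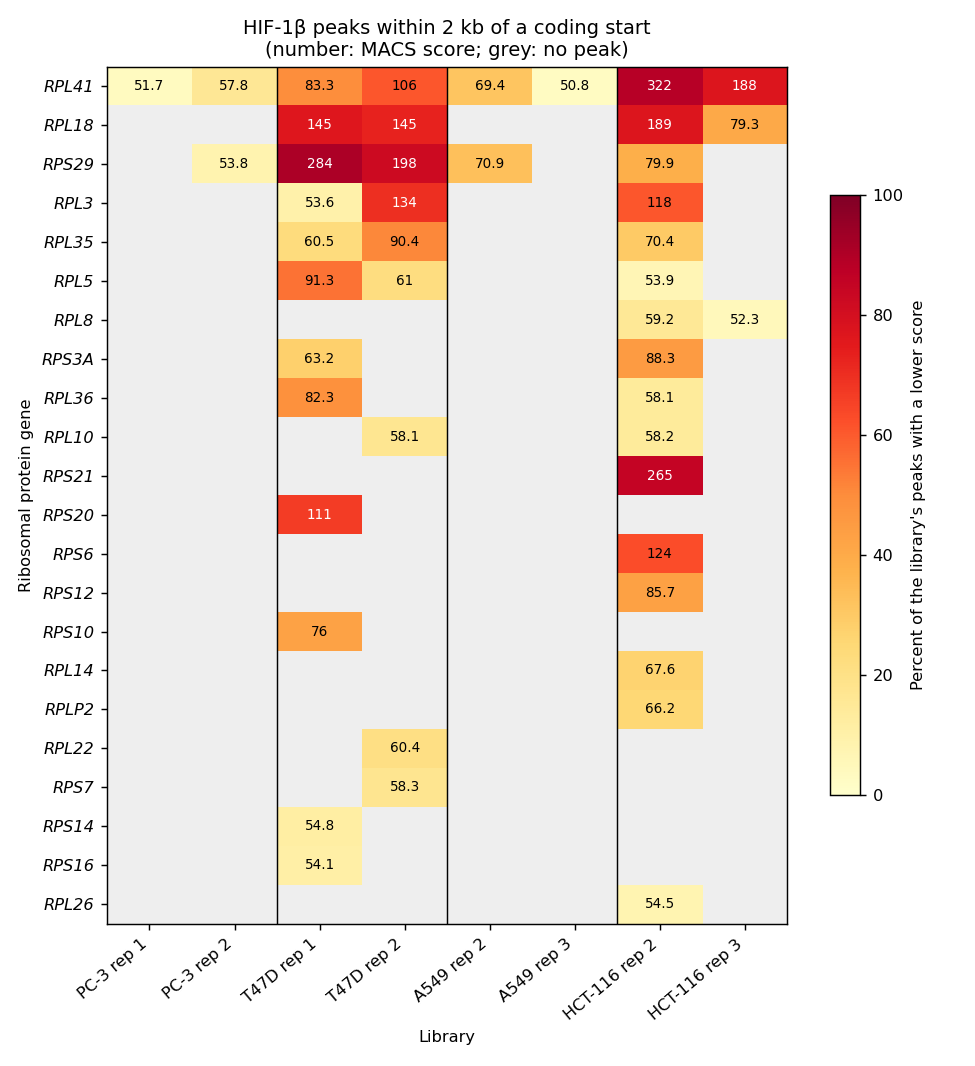
MACS scores (printed, no unit) of peaks within 2 kb of a coding start for 22 of the 25 ribosomal protein genes (rows) with a peak in any of the 8 libraries (columns), where the colour is the percent of peaks of that library with a lower score and grey is no peak. RPL41 fills all 8 columns, and most other entries lie in the T47D columns and in HCT-116 replicate 2, which together hold 37 of the 46 peaks shown.

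In each T47D library the highest score at a ribosomal protein gene was at RPS29. This gene encodes a small zinc-binding protein of the small subunit that is mutated in some families with Diamond-Blackfan anaemia, an inherited failure of red cell production. Its peaks scored 284 and 198 in replicates 1 and 2 of T47D cells, above 90.7% and 82.4% of the peaks of those libraries. The score was 70.9 in A549 replicate 2 and 79.9 in HCT-116 replicate 2, and neither line had a peak in its other replicate. In PC-3 replicate 2 a peak with a score of 53.8 lay 12181 bp upstream, at another annotated start of RPS29 and 200 bp from the start of LRR1. T47D was therefore the line with RPS29 in both libraries, and the other 3 lines had it in 1 of 2. The T47D site, chr14:50052487-50054103, covered the canonical start at 50053098, and 13.8% and 24.6% of the T47D sites had a higher score in replicates 1 and 2.

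RPL18 was the gene with a site on its own start in more than 1 line. It encodes a protein of the large subunit, and its start lies back to back with that of SPHK2, a sphingosine kinase transcribed in the opposite direction. Scores were 145 and 145 in T47D cells and 189 and 79.3 in replicates 2 and 3 of HCT-116 cells, and no peak was listed in PC-3 or A549 cells. All 4 peaks covered the RPL18 start at 49122435 on chromosome 19. Their centres lay 115 to 176 bp upstream of the nearest RPL18 start and only 5 to 66 bp from a start of SPHK2, so that the peaks cannot be given to either gene by position.

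RPL41 had a site in every line but not at its start. The gene encodes a very short and strongly basic peptide of the large subunit. Its peaks scored 51.7 and 57.8 in PC-3, 83.3 and 106 in T47D, 69.4 and 50.8 in A549 and 322 and 188 in HCT-116 cells. Within their own lists the HCT-116 peaks ranked high, above 88.4% and 77.1% of the peaks, and those of PC-3 replicate 1 and A549 replicate 3 were close to the lowest score, above 3.17% and 2.76%. The centres of the 8 peaks lay 1564 to 1791 bp downstream of the RPL41 start at 56510417 on chromosome 12, and none of the peaks covered it. They lay within 53 bp of a start of ZC3H10 (starts from 56512044) or ESYT1 (first start 56512034), genes on the same strand that encode a zinc finger protein and a membrane tether. Among coding genes, 0.954% had a site in all 4 lines. When each site was given only to the gene with the nearest start, a choice made after seeing these positions, RPL41 had none, and 0, 5, 0 and 1 ribosomal protein genes were counted in PC-3, T47D, A549 and HCT-116 cells, since RPL18 then went to SPHK2. Under that rule 2.05%, 6.23%, 1.65% and 5.5% of coding genes had a site, and the mean difference was -2.03 percentage points (SD 1.71, n = 4 lines), with the smallest p of the exact sign-flip permutation test, 1 in 8.

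**Figure D3:**
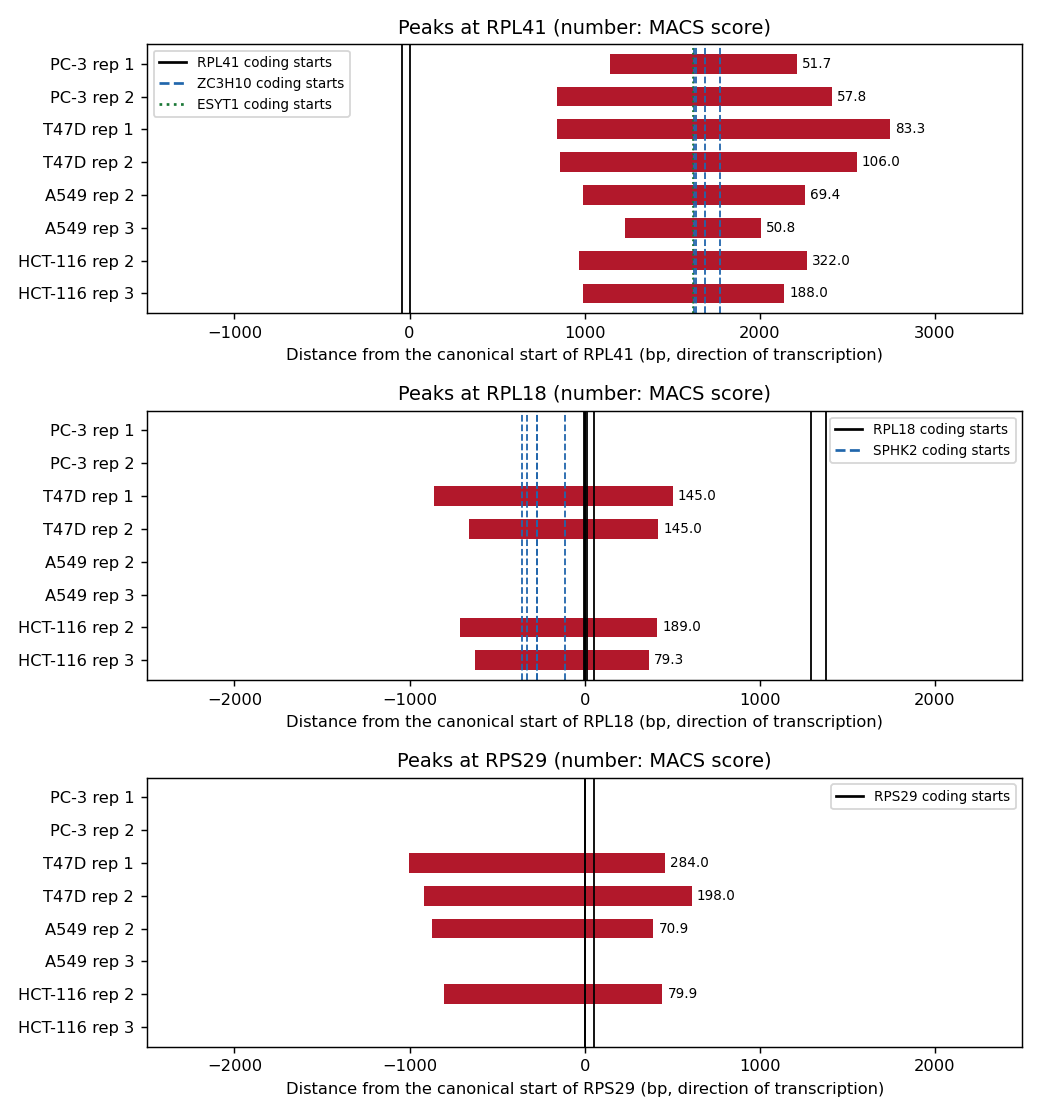
Peaks (red bars, with MACS scores) of the 8 libraries around RPL41, RPL18 and RPS29, with distance from the canonical start in bp in the direction of transcription on the horizontal axis and vertical lines at coding starts of the gene and its neighbours. RPL41 peaks centre 1564 to 1791 bp past its start on the starts of ZC3H10 and ESYT1, RPL18 peaks cover its start and those of SPHK2, and RPS29 peaks cover its own start (a PC-3 replicate 2 peak 12181 bp upstream is off the axis).

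Sites in T47D cells were also at RPL3, RPL35 and RPL5, and each of these genes had a single peak outside T47D, in HCT-116 replicate 2. RPL3, whose protein reaches towards the peptidyl transferase centre, scored 53.6 and 134 in T47D and 118 in HCT-116 replicate 2. The replicates of T47D thus placed the RPL3 peak above 9.49% and 69.8% of their peaks, a wide spread for 1 site. RPL5, which binds the smallest ribosomal RNA and can inhibit MDM2, the ligase of p53, scored 91.3 and 61.0 in T47D and 53.9 in HCT-116 replicate 2.

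RPL35, a protein near the exit of the nascent chain, scored 60.5 and 90.4 in T47D and 70.4 in HCT-116 replicate 2. Its start lies back to back with that of ARPC5L, a subunit of the actin-nucleating Arp complex, which lay 31 to 264 bp from the centres. RPL8, a large-subunit protein, had a site in HCT-116 cells only among the lines, with scores of 59.2 and 52.3, low in both libraries. At that site the peaks were wide, and the merged region of 3112 bp was the widest at any member. All 7 genes with a T47D site had a peak in HCT-116 replicate 2, which was so for 73.2% of the 1469 coding genes with a T47D site. Of the 7, only RPL18 and RPL41 also had one in HCT-116 replicate 3, whose list held 1913 peaks against 3790 in replicate 2. The matching share of coding genes was not counted for replicate 3.

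Peaks in single libraries included some of high score. RPS21, a small-subunit protein, scored 265 in HCT-116 replicate 2, above 84.8% of its peaks, and had no peak elsewhere. RPS6, the substrate of the S6 kinases downstream of mTOR, scored 124 there, above 62.6%. RPS20 scored 111 in T47D replicate 1, above 66.6%. None of the 3 was seen in the other replicate of its line. RPS12, RPS10, RPL14, RPLP2, RPL22, RPS7, RPS14, RPS16 and RPL26 were also seen once and scored from 54.1 to 85.7. RPS3A, RPL36 and RPL10 had peaks in 1 T47D library and in HCT-116 replicate 2, with scores from 58.1 to 88.3, and the RPL36 peak in HCT-116 cells lay at a different annotated start, 50 bp from a start of HSD11B1L.

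Of the genes that the study names at cancer susceptibility loci, RPL4 and RPS23 had no peak in any library. The study lists RPS23 among the genes nearest to a breast cancer locus that overlapped a HIF-binding site. It lists RPL4 and RPL14 at renal cancer loci, which it compared with sites in renal cancer cells. Its overlaps are those of the polymorphisms, whereas the distances here run from coding starts, so the 2 are not the same measure. The nearest site to RPL4 lay 116562 to 116802 bp away in every line. For RPS23 it lay 305598 bp away in T47D and 78357 bp in HCT-116 cells. RPL14 had a peak with a score of 67.6 in HCT-116 replicate 2 and no site. The stalk of the large subunit, which recruits elongation factors, is formed by RPLP0, RPLP1 and RPLP2, and only RPLP2 had a peak, with a score of 66.2 in HCT-116 replicate 2. RPSA, a small-subunit protein also known as a laminin receptor, had none, nor had the 5 paralogues RPL3L, RPL10L, RPL36AL, RPL39L and RPS27L. Just outside the window lay RPLP0, 2002 bp from a site in HCT-116 cells, and RPL36, 2302 bp from a site in T47D and 2375 bp in HCT-116 cells.

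By subunit, 12 of 50 large-subunit genes (24.0%) and 13 of 32 small-subunit genes (40.6%) had a peak in any library, beside 21.5% of coding genes. For sites the order was the other way, with 6 of 50 and 2 of 32 (6.25%) in any line, beside 10.7% of coding genes. The 6 include RPL41, whose sites did not reach its start, and RPL18, whose peaks could not be told from those of SPHK2. All of these are counts of genes in the same libraries, and the difference between subunits was not tested. No small-subunit gene had a site in PC-3, A549 or HCT-116 cells, beside 2.36%, 1.87% and 6.48% of coding genes. A count of 0 of 32 allows a share of up to 10.9% (upper bound of the 95% exact interval), which is above all of these.

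Apart from those at RPL41, the peaks lay on the starts. All 43 other peaks at members covered a start, and their centres were 1 to 368 bp from it, with a median of 127 bp. Peak widths ran from 746 to 3112 bp with a median of 1215 bp, so that a peak covers much more than the letters that HIF reads. Of all 51 peaks, 15 were centred nearer to a start of a neighbouring gene, at RPL41, RPL18, RPL35 and RPL36.

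Scores at ribosomal protein genes were below the median of promoter peaks in 7 of 8 libraries. In HCT-116 cells the median was 69.0 against 95.4 in replicate 2 and 79.3 against 91.5 in replicate 3. In T47D cells it was 82.8 against 84.5 in replicate 1 and 98.3 against 87.3 in replicate 2, the exception. The PC-3 and A549 libraries, with 1 or 2 members each, had medians of 50.8 to 70.2 against 91.1 to 96.1. RPL41, whose peaks did not reach its start, was the only member in PC-3 replicate 1 and A549 replicate 3. It was 1 of 2 members in the other PC-3 and A549 libraries. These medians were compared within a library only, since the lists do not say what the score is.

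The letters RCGTG were present in all 12 sites at ribosomal protein genes, 4 of which are the RPL41 site in the 4 lines. They were as common in promoter sites in general, of which 98.8 to 99.7% held them, and the part of site length in this was not tested. In the central 200 bp of the site they were present in 10 of 12, beside 69.4 to 77.5% of promoter sites. The sites without a central copy were those of RPL41 and RPL35 in T47D cells.

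The promoters themselves, from 250 bp before to 50 bp after the canonical start, held RCGTG in 57 of 82 ribosomal protein genes (69.5%) and in 56.5% of coding genes. It was present in 23 of the 25 with a peak (92.0%) and in 34 of the 57 without (59.6%). Among all coding genes the shares were 73.2% with a peak and 51.9% without. Many ribosomal protein promoters thus held the letters and had no listed peak. CACGTG, which contains RCGTG on both strands, was present in this window in 5 of 82 (6.1%) and in none of the 25 with a peak. The shares were 8.72% of coding genes and 13.1% of those with a peak. Outside the window, the sites of RPL35 in T47D and RPL8 in HCT-116 cells each held 1 copy of CACGTG.

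The make-up of the promoters was set beside that of all coding genes and of the mitochondrial ribosomal protein genes. A CpG-rich promoter (GC of at least 50% and an observed to expected CpG ratio of at least 0.6) was found in 72 of 82 (87.8%) beside 65.3% of coding genes and 94.9% of mitochondrial ribosomal protein genes. All 25 genes with a peak were among the 72, and none of the other 10 had one. Among coding genes without such a promoter, 7.78% had a peak. CCGGAA, a core that ETS factors bind, was present in 54.9% beside 22.5% and 60.3%, and AAGATGGC, one that YY1 binds, in 12.2% beside 4.03% and 28.2%, each on either strand. The mitochondrial list thus had the larger share in each case, which was not tested.

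Set against coding genes with a CpG-rich promoter, a background chosen after seeing the data, the 82 ribosomal protein genes, 10 of them without such a promoter, were below it in all 4 lines. The CpG-rich shares were 3.07% in PC-3, 10.1% in T47D, 2.38% in A549 and 8.89% in HCT-116 cells. The 72 ribosomal protein genes with such a promoter had shares of 1.39%, 9.72%, 1.39% and 4.17%, below the background in each line but close to it in T47D cells. For all 82 the mean difference was -2.46 percentage points (SD 1.87, n = 4 lines), from -1.16 in A549 to -5.23 in HCT-116 cells. The exact sign-flip permutation test gave the smallest p that 4 lines allow, 1 in 8, and so could not pass 0.05.

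More distant sites were counted as well. Within 25 kb of a site lay 16 ribosomal protein genes (19.5%) in T47D, 10 (12.2%) in HCT-116, 4 (4.88%) in PC-3 and 3 (3.66%) in A549 cells. The shares of coding genes were 13.3%, 11.9%, 5.57% and 4.59%. The median distance to the nearest site was 434989 bp in PC-3, 254211 bp in T47D, 566520 bp in A549 and 246696 bp in HCT-116 cells. It was longer for coding genes in every line, at 705622, 271414, 798692 and 321570 bp, and the difference was not tested.

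Other genes of the translation machinery were described in the same way, beside all coding genes. Of the latter, 7.41% had a site in T47D, 6.48% in HCT-116, 2.36% in PC-3 and 1.87% in A549 cells. Of 61 ribosome biogenesis factors, which assemble the subunits, 12 (19.7%) had a site in T47D, 12 (19.7%) in HCT-116, 3 (4.92%) in PC-3 and 1 (1.64%) in A549 cells. RRP12 was the one with a site in all 4 lines, and TSR1 had a site in 3 lines. Of 47 translation factors, 8 had a site in T47D, 5 in HCT-116, 3 in PC-3 and 0 in A549 cells, led by EIF3D and EIF4H with 3 lines each. Of 78 mitochondrial ribosomal proteins, 4 (5.13%) had a site in T47D and 6 (7.69%) in HCT-116 cells, with MRPL39 and MRPL45 in both lines, and none in PC-3 or A549 cells. The lists are of different sizes, their intervals are wide, and the differences between them were not tested.

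**Figure D4:**
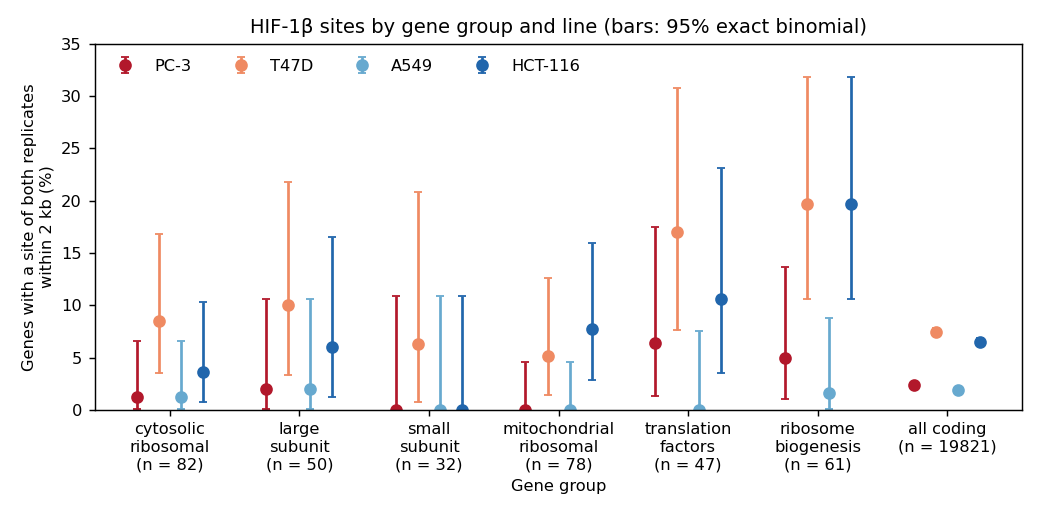
Percent of genes with a site of both replicates within 2 kb of a coding start (vertical axis), by gene group (horizontal axis) and line (colour), with 95% exact binomial intervals. Cytosolic ribosomal proteins run from 1.22% to 8.54%, near all coding genes at 1.87% to 7.41%, and ribosome biogenesis factors reach 19.7% in T47D and HCT-116 cells.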

How the data were processed

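HIF-1β ChIP-seq libraries of hypoxic PC-3, T47D, A549 and HCT-116 cells were analysed, 2 per line, grouped by their titles. Per the submitters' processing notes, Trim Galore 0.3.3, BWA 0.7.5a-r405, SAMtools 0.1.19, Picard 1.106, bedtools 2.17.0 and MACS (its version is not given in the sources used here) were used on GRCh37 (hg19). The authors deposited 1 peak list per library, with a score for each peak. No header explains the score, whose lowest value is near 50 in every list, as a fixed limit on the list would give. The paper also names T-PIC as a peak caller, a step that cannot be seen in the lists. The lists hold no reads, so the depth is unknown, and only peaks above the authors' limit can be counted.

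Starts of coding transcripts came from GENCODE release 44 lifted to GRCh37. Overlapping peaks of both replicates were merged into sites on the main chromosomes. No set test was run. Some genes and sequences among those counted are not reported here. Genes named in the text were those with sites in the most lines, then the most libraries, then the highest mean score percentile, up to 12, with those that the study names at cancer loci, the stalk genes and RPSA, and the 2 leading genes of each other list. RPS21, RPS6, RPS20 and genes seen in 1 or 2 libraries were named after their values were seen. The members and lists were chosen with earlier results of these data known. Alternatives were other windows, canonical starts, other overlaps, a peak of either replicate, the higher-scoring 50% of lists, left-out replicates and lines, and other members. Merging was tested on simulated data and against bedtools. Python 3.11.15, NumPy 2.4.6, SciPy 1.17.1, pysam 0.24.0, Matplotlib 3.10.9, bedtools 2.31.1 and samtools 1.23.1 were used.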

Additional observations from a re-analysis of the deposited data

How the results depend on the processing

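The counts of ribosomal protein genes with a site, 1, 7, 1 and 3 in PC-3, T47D, A549 and HCT-116 cells, depended most on how replicates were used. A peak of either replicate gave 2, 17, 2 and 18 genes, and each replicate alone gave 1 to 2, 10 to 14, 1 to 2 and 3 to 18, so that HCT-116 replicate 2 decides the highest count. The share of all coding genes moved with the replicates too. For sites it was 2.36%, 7.41%, 1.87% and 6.48%. In single replicates it was 2.49% and 6.2% in PC-3 and 10.9% and 10.1% in T47D cells. It was 3.02% and 2.25% in A549 and 14.3% and 6.94% in HCT-116 cells. The higher-scoring 50% of each list gave 0, 3, 0 and 1 genes, with a mean difference from coding genes over lines of -1.11 points. A 500 bp window gave 0 in PC-3 and 0 in A549 cells, and a 5 kb window gave 5 in HCT-116 cells. The nearest start gave 0 in PC-3, 0 in A549 and 1 in HCT-116 cells. The mean difference from coding genes was -1.73 points with the 500 bp window, -0.475 with the 5 kb window and -2.03 with the nearest start. The mean difference from coding genes of -0.871 points turned to 2.38 with a peak of either replicate and to 3.01 with the lower-numbered replicate of each line alone (exact permutation tests, p = 0.5 for both), and without each line in turn it was -1.54 to -0.221. The test between lines gave p = 0.029 (exact permutation test) with the higher-scoring 50% of lists and 0.2 to 0.31 under its other alternatives. The cause of these changes was not tested. In 59 other alternative values, those for the RCGTG share included, the direction and call were kept or the count stayed within 1.5 times. The nearest start and the CpG-rich background were chosen after seeing the data. No paired analysis was possible because site counts come from no test, all 4 lines share replicate number 2 alone, and nothing says that a number marks something common to lines.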
